A study of Homo sapiens with 6 samples.

Results

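The 10 genes described here code for secreted growth factors of the stanniocalcin, VEGF, PDGF, FGF and HGF families, or for PDGF receptors. They were chosen by symbol from the 63129 genes of the expression table: STC1, STC2, VEGFA, VEGFC, PDGFA, PDGFRA, PDGFRB, FGF2, FGF7 and HGF. Mean level would have decided between repeated symbols, but 0 of the 10 symbols were repeated, so no measured value selected a row. The names themselves were proposed with earlier results of these data known, and the counts over the 10 genes are therefore a description. All 10 were found, and all 10 passed the filter, a mean of 1 FPKM or more over the 6 libraries. FPKM is the number of sequenced fragments per transcript length and per mapped fragments of a library, so levels of different genes can be compared per length.

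The RNA came from ERRAS cells, which are IMR90 primary human lung fibroblasts carrying a retroviral fusion of H-RasV12 with the ligand-binding domain of the estrogen receptor, so that tamoxifen switches the oncogene on. Control mitotic cells (3 libraries) were left uninduced, and Ras-induced mitotic cells (3 libraries) had received tamoxifen for 4 days, at 100 nM according to the labels. The methods give the dose as 100 ng/ml 4OHT (4-hydroxytamoxifen), which is not the same amount. Both groups carried the construct, were selected with G418, were grown in 20% FCS at 3% oxygen, were arrested in mitosis with 1 µM DME (an inhibitor of the kinesin Eg5, without which a bipolar spindle does not form) and were collected as detached cells. According to the study the experiment was repeated independently, whereas the labels only number the libraries, so each library was taken as a separate replicate of its group.

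Growth factors of these families carry signals between cells. VEGFA acts on the endothelial receptor tyrosine kinases FLT1 and KDR, and VEGFB and PGF on FLT1, whereas VEGFC acts mainly on FLT4 and drives lymphatic vessel growth. PDGF ligands act on PDGFRA and PDGFRB, the receptor pair by which fibroblasts and other mesenchymal cells take up growth signals. FGF2 binds several FGF receptors, while FGF7 (keratinocyte growth factor) and HGF (the ligand of MET) are made by fibroblasts and act largely on neighbouring epithelium. The stanniocalcins STC1 and STC2 are secreted glycoproteins, and both can block the pappalysins, proteases that release insulin-like growth factors from their binding proteins.

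STC1 and VEGFA rose in Ras-induced mitotic cells, and the other 8 genes did not pass the test. Of the 10 genes tested, 2 were called (adjusted p of 0.05 or less, limma), both of them higher. Among all 13993 tested genes, 16.7% were called, 11.0% as higher and 5.67% as lower. The median log2 fold change was 0.05 over the 10 genes and 0.10 over all tested genes. Values of the groups did not overlap for 4 of the 10 genes, beside 39.9% of all tested genes. The counts of the 10 genes thus lay near the background of the whole table, and what sets them apart from one another is the size of the change in STC1 and VEGFA.

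Promoter sequence was read for the 10 genes from a table of RefSeq sequences of GRCh38.p14, in windows of 250 bases that end just before an annotated gene start. Windows were found for 8 of the 10 genes (12 windows in all, since some genes have several starts). For STC1 and VEGFA no promoter window was used here. On both strands, the AP-1 motif TGANTCA, the GC box GGGCGG, the hypoxia response core ACGTG, the amino acid response motif TGATGNAA (CARE, a site type bound by ATF4), the ETS motif CCGGAA and the TATA box TATAAA were searched. Shown are the first windows of STC2 and VEGFC, the measured relatives of the genes that rose, and the only window of the 12 with an AP-1 match, that of PDGFRA (5′ to 3′ in the direction of the gene, matches in capitals). AP-1 is a transcription factor known to act downstream of Ras.

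STC2 (GRCh38.p14 chr5:173328415-173328664, minus strand): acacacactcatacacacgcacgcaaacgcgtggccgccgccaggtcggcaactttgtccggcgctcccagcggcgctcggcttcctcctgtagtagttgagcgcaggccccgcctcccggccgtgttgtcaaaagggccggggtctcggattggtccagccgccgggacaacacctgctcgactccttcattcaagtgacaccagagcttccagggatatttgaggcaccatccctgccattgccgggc

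VEGFC (GRCh38.p14 chr4:176792923-176793172, minus strand): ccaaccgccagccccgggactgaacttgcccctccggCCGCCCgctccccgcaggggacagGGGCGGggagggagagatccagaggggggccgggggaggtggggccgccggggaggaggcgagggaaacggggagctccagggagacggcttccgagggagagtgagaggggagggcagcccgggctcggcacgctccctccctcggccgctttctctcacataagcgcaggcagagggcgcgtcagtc

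PDGFRA (GRCh38.p14 chr4:54229043-54229292, plus strand): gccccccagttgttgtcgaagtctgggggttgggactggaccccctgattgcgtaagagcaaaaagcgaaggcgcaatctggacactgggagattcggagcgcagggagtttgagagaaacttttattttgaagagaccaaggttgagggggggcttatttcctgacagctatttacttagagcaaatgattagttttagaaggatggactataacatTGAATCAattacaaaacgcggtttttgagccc

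The STC2 window held 0 matches to the 6 motifs, and the VEGFC window held 2 GC boxes. A GC box was present in 8 of the 12 windows and in 42.6% of 35116 windows of the same length. Several of these 8 windows are starts of PDGFA, and by gene a GC box was present in 5 of the 8 genes with a window. The AP-1 motif was present in 1 of the 12 and in 6.57% of all windows. An ETS match was found in 1 of the 12 windows (a PDGFA start) and in 14.5% of all windows. The hypoxia core, the CARE and the TATA box were found in 0 of the 12 windows and in 18.5%, 3.14% and 10.7% of all windows. The matches are letters in a fixed window and were not measured as bound sites.

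STC1 (ENSG00000159167, 8:23699442-23712319 of GRCh37) had the highest level of the 10 genes in both groups and the largest change. Control mitotic libraries measured 135.9, 117.3 and 171.6 FPKM, and Ras-induced libraries 673.5, 687.9 and 823.2 FPKM. All 3 Ras-induced libraries lay above all controls, and the lowest of them was 3.92 times the highest control. The mean rose from 141.6 ± 27.6 to 728.2 ± 82.6 FPKM (SD, n = 3 in each group), a ratio of 5.14. On the log2(FPKM + 1) scale, used for all fold changes here, the change was 2.37 (standard error 0.15, 95% interval 2.00 to 2.74, adjusted p = 0.0013 from limma).

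STC2 (ENSG00000113739, 5:172741726-172755450), the paralog of STC1, did not pass the test. Controls measured 67.5, 33.0 and 33.9 FPKM and Ras-induced libraries 46.2, 44.3 and 24.1 FPKM. The groups overlapped, and the first control library stood above all other libraries. The log2 fold change was -0.20 with a 95% interval from -1.03 to 0.63 (adjusted p = 0.724, limma), which leaves room for a rise or a fall. Without the first control library the estimate was 0.13, and without the third Ras-induced library it was 0.09.

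The 2 stanniocalcins were also compared within each library, a ratio that takes up the change of STC1 given above. Ratios are printed from the FPKM values themselves, whereas the differences tested are of log2(FPKM + 1), so for genes of low level the tested difference is smaller than the printed ratios give. STC1 was 2.01, 3.55 and 5.06 times STC2 in the control libraries. In the Ras-induced libraries it was 14.6, 15.5 and 34.1 times STC2. The groups did not overlap, and the difference of log2(FPKM + 1) between STC2 and STC1 changed by -2.57 (exact two-sided permutation p = 0.1, the smallest that 3 libraries against 3 allow, and 0.2 adjusted over the 4 pairs of genes compared).

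VEGFA (ENSG00000112715, 6:43737921-43754224), the main vascular growth factor, started low and rose. Control libraries measured 11.7, 8.48 and 11.2 FPKM, and Ras-induced libraries 39.3, 25.0 and 31.8 FPKM. All Ras-induced libraries lay above all controls, the nearest values being 2.15-fold apart. The mean went from 10.4 ± 1.71 to 32.0 ± 7.16 FPKM (SD, n = 3), a ratio of 3.07. The log2 change was 1.52 (95% interval 1.07 to 1.97, standard error 0.19), at an adjusted p of 0.0052 (limma). A long noncoding gene on the opposite strand, RP1-261G23.7, shares 188 exonic bases with VEGFA, and the library kit does not keep strand, so reads of the shared stretch cannot be assigned. That gene measured 13.7, 15.5 and 12.4 FPKM in controls and 44.9, 15.3 and 38.4 FPKM in Ras-induced libraries (log2 fold change 1.06, adjusted p = 0.10, limma), its second Ras-induced library lying within the control range.

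VEGFC (ENSG00000150630, 4:177604689-177714076), the lymphatic growth factor, was already abundant in control cells and moved little. Controls measured 100.5, 83.9 and 87.9 FPKM and Ras-induced libraries 110.9, 104.1 and 116.8 FPKM. The groups did not overlap, although the highest control and the lowest Ras-induced library were only 1.04-fold apart. The mean was 90.8 ± 8.65 in control and 110.6 ± 6.38 FPKM in Ras-induced cells (SD, n = 3). The log2 fold change of 0.28 (95% interval 0.06 to 0.51) missed the threshold at an adjusted p of 0.083 (limma).

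The 2 VEGF ligands were set beside each other within libraries, a ratio that takes up the change of VEGFA given above. VEGFC was 8.63, 9.90 and 7.88 times VEGFA in the control libraries, and 2.82, 4.16 and 3.68 times VEGFA in the Ras-induced ones. VEGFC was thus the more abundant transcript in all 6 libraries, and the ratios of the groups did not overlap. The difference of log2(FPKM + 1) between VEGFA and VEGFC changed by 1.24 from control to Ras-induced cells, which did not pass the test (exact two-sided permutation p = 0.1, the smallest possible here, and 0.2 adjusted over 4 pairs).

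**Figure D1:**
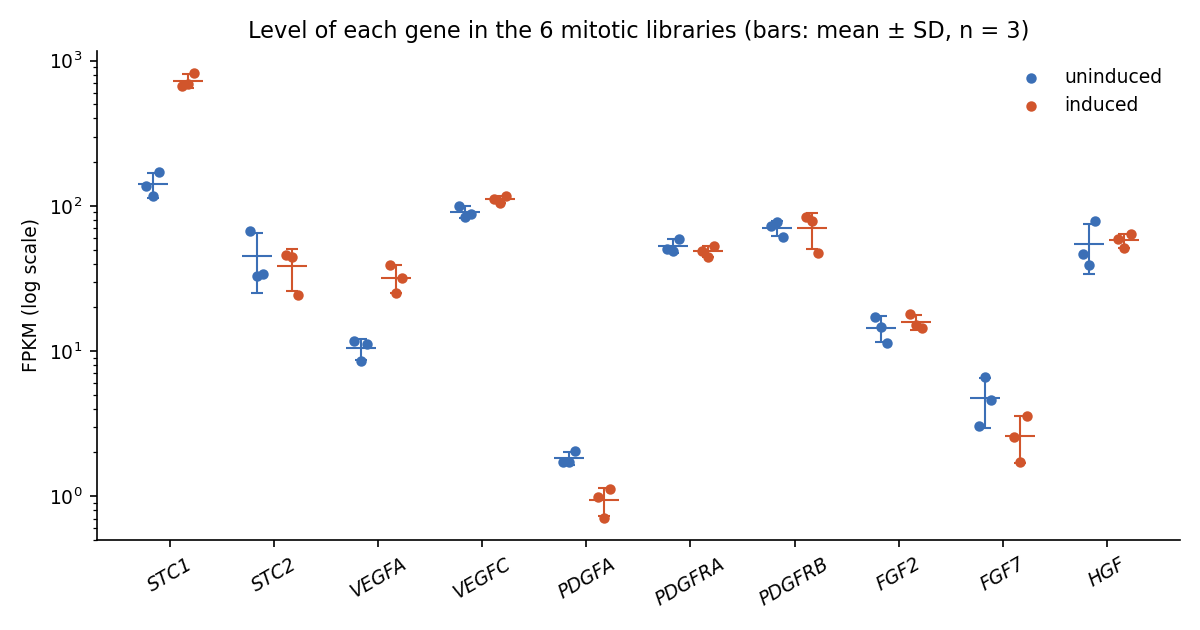
Level of the 10 genes in FPKM (log axis) in the 3 uninduced (blue) and 3 induced (orange) libraries, with points for libraries and bars for mean ± SD. STC1 and VEGFA separate widely (141.6 against 728.2 and 10.4 against 32.0 FPKM), PDGFA and VEGFC separate narrowly, and the other 6 overlap.

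PDGFA (ENSG00000197461, 7:536895-559933), which codes for the PDGF A chain, was the lowest of the 10 genes in both groups. Control libraries measured 1.72, 1.72 and 2.03 FPKM, and Ras-induced libraries 0.983, 0.710 and 1.12 FPKM. All Ras-induced values lay below all control values. The mean was 1.82 ± 0.180 in control and 0.937 ± 0.207 FPKM in Ras-induced cells (SD, n = 3), and control was 1.94 times Ras-induced. The log2 fold change of -0.55 (95% interval -0.97 to -0.12) did not pass at an adjusted p of 0.081 (limma), but it did when the mean-variance trend was left out (adjusted p = 0.030). At this level the added 1 FPKM shrinks the estimate, which was -0.91 when 0.1 FPKM was added instead.

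The PDGF receptors were abundant in both groups. PDGFRA (ENSG00000134853, 4:55095447-55164412) measured 50.6, 48.5 and 59.4 FPKM in control and 48.8, 44.6 and 53.0 FPKM in Ras-induced libraries. Its log2 fold change was -0.11, and the 95% interval from -0.37 to 0.15 was among the narrowest of the 10 (adjusted p = 0.505, limma). PDGFRB (ENSG00000113721, 5:149493402-149535435) measured 72.4, 77.2 and 60.6 FPKM in control and 84.0, 78.5 and 47.5 FPKM in Ras-induced libraries. Both extremes of PDGFRB thus lay in the Ras-induced group, and the group means were 70.04 and 70.00 FPKM (log2 fold change -0.04, 95% interval -0.57 to 0.50, adjusted p = 0.930, limma).

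Within libraries, PDGFRB was 1.43, 1.59 and 1.02 times PDGFRA in controls and 1.72, 1.76 and 0.896 times PDGFRA in Ras-induced cells. The third library of each group had the lowest ratio, and on the log2(FPKM + 1) scale the groups differed by 0.08 (exact two-sided permutation p = 0.8, also 0.8 after adjustment over 4 pairs).

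FGF2 (ENSG00000138685, 4:123747837-123819391), a broadly acting FGF that is retained by heparan sulfate, measured 17.2, 14.6 and 11.4 FPKM in control and 17.9, 15.2 and 14.4 FPKM in Ras-induced libraries. The groups overlapped (log2 fold change 0.14, 95% interval -0.25 to 0.53, adjusted p = 0.586, limma). FGF2 shares 804 exonic bases with NUDT6, its antisense neighbour, which ranged from 15.2 to 23.3 FPKM (log2 fold change 0.05, adjusted p = 0.852, limma). Without strand information the reads of the shared part could belong to either gene.

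FGF7 (ENSG00000140285, 15:49715434-49780972) was low and varied between libraries. Controls measured 3.04, 6.57 and 4.57 FPKM and Ras-induced libraries 2.55, 1.71 and 3.58 FPKM. The mean was 4.73 ± 1.77 in control and 2.61 ± 0.936 FPKM in Ras-induced cells (SD, n = 3), but the lowest control lay within the Ras-induced range. The log2 fold change was -0.65 (95% interval -1.33 to 0.03, adjusted p = 0.164, limma). The 2 annotated FGF7 pseudogenes in the table, FGF7P1 and FGF7P2, were listed at 0 in all 6 libraries, and how reads shared with them were counted is not given in the sources used here.

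FGF2 was 5.67, 2.23 and 2.48 times FGF7 in the control libraries and 7.02, 8.88 and 4.01 times FGF7 in the Ras-induced ones. The first control library lay within the Ras-induced range. On the log2(FPKM + 1) scale the groups differed by 0.79, and by 0.97 when 0.1 FPKM was added instead (for the main value, exact two-sided permutation p = 0.2, 0.267 adjusted over 4 pairs).

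HGF (ENSG00000019991, 7:81328326-81399754) measured 46.6, 39.4 and 78.4 FPKM in control and 59.4, 50.8 and 63.6 FPKM in Ras-induced libraries. Here the control libraries spread more widely (54.8 ± 20.8 FPKM) than the Ras-induced ones (57.9 ± 6.51 FPKM, SD, n = 3), and held both the lowest and the highest value. The log2 fold change was 0.14 with a 95% interval from -0.45 to 0.73 (adjusted p = 0.736, limma).

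**Figure D2:**
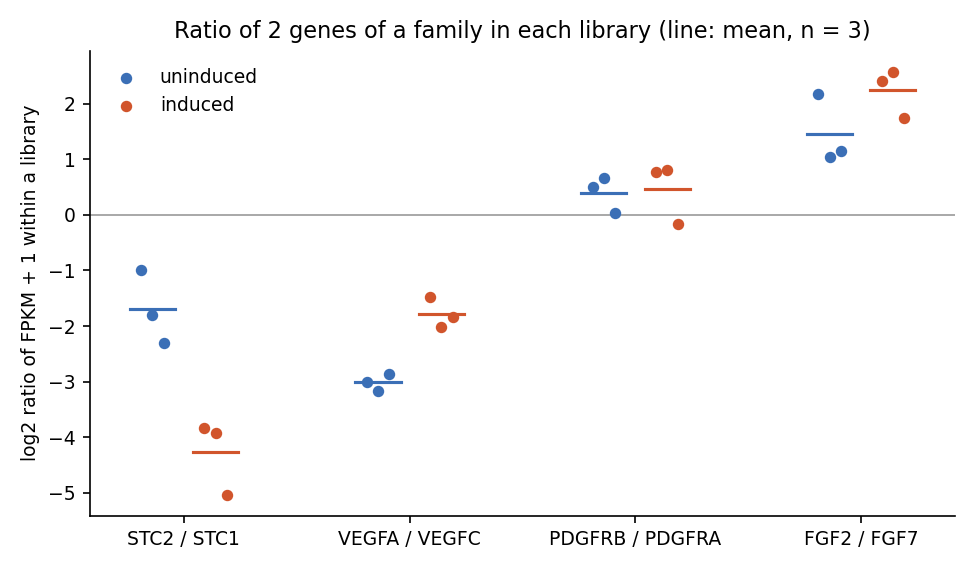
Difference of log2(FPKM + 1) between 2 genes of a family within each library, for 3 uninduced (blue) and 3 induced (orange) libraries, with a line at each group mean. The groups do not overlap for STC2 to STC1 (difference -2.57) and VEGFA to VEGFC (1.24), and overlap for the PDGF receptors (0.08) and for FGF2 to FGF7 (0.79). The first 2 of these take up the changes of STC1 and VEGFA themselves.

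The order of the levels was nearly the same in both groups. In control cells it ran from STC1 through VEGFC, PDGFRB, HGF, PDGFRA, STC2, FGF2, VEGFA and FGF7 to PDGFA. In Ras-induced cells VEGFA stood above FGF2, and the other places did not change. The ranges of PDGFRB and HGF, of HGF and PDGFRA, and of PDGFRA and STC2 overlapped in both groups, so these neighbours did not differ beyond their spread. VEGFA overlapped with FGF2 in control cells and with STC2 in Ras-induced cells. The remaining 5 neighbouring pairs in each group did not overlap.

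**Figure D3:**
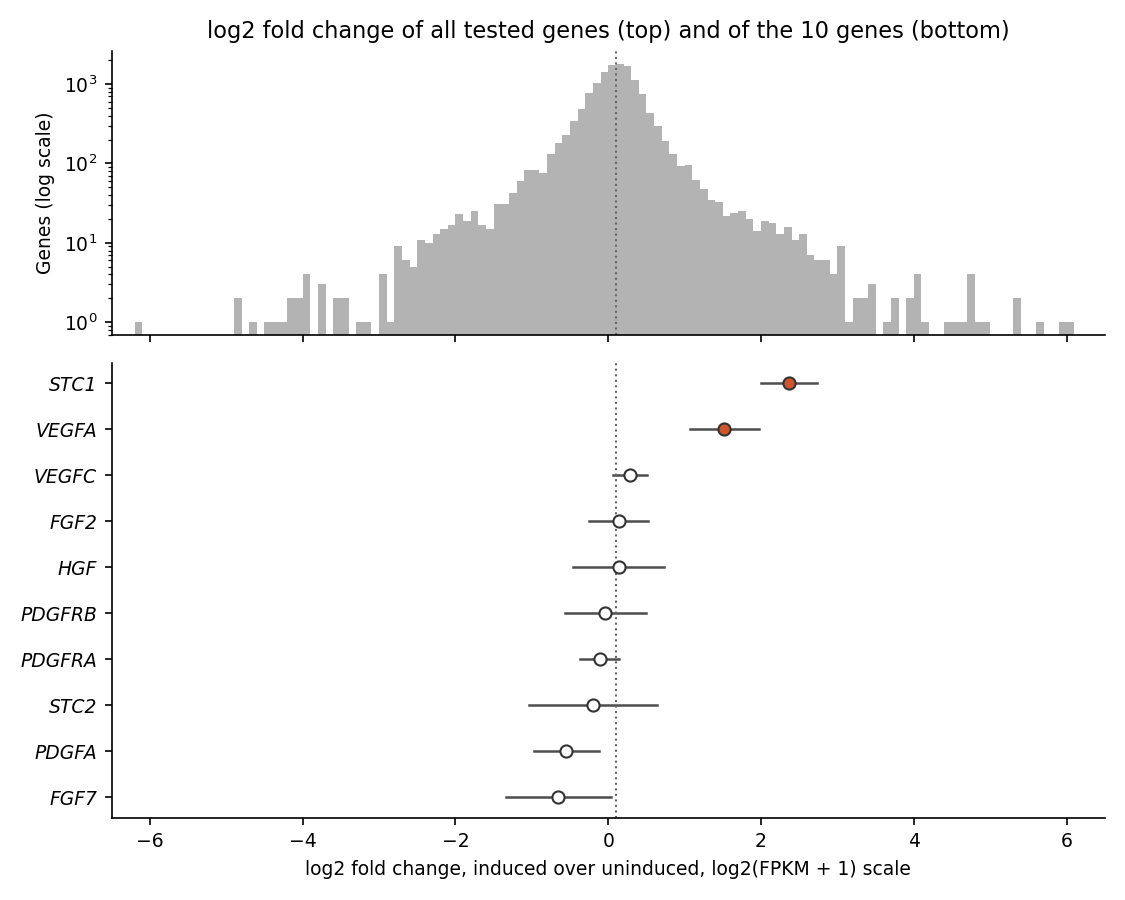
Number of genes at each log2 fold change of induced over uninduced cells for all 13993 tested genes (top, log axis), and the estimate with 95% interval of each of the 10 genes (bottom, filled where adjusted p was 0.05 or less). The dotted line is the median of all tested genes (0.10), and the intervals of STC1 (2.00 to 2.74) and VEGFA (1.07 to 1.97) lie to its right.

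The partners of the 10 genes came from 6 lists of 53 further ligands, receptors, carriers and protease partners, put together with earlier results known. Of these, 18 were measured highly enough to be tested and 4 were called, 2 as higher and 2 as lower, with a median log2 fold change of -0.07. Over all tested genes 16.7% were called, so these 4 of 18 lay near the background. All 4 called genes are named below, and 9 of the 18 had an unadjusted p below 0.05, as did 33.6% of all tested genes.

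Among the 8 VEGF genes, 5 were tested and 1 was called. VEGFB, a ligand of FLT1, measured 54.2, 49.6 and 47.5 FPKM in control and 74.5, 67.0 and 81.8 FPKM in Ras-induced libraries. Its groups did not overlap, and it rose by 0.55 ± 0.10 (standard error) on the log2 scale, with an adjusted p of 0.015 (limma). The call was lost when the second control, the first Ras-induced or the third Ras-induced library was left out (highest adjusted p = 0.057). The receptor genes KDR and FLT4 were near the limit of detection, with KDR at no more than 0.0667 FPKM and FLT4 at no more than 0.236 FPKM in any library. FLT1, which binds VEGFA and VEGFB, was measured at 5.85 to 13.45 FPKM, with a log2 fold change of 0.18 (adjusted p = 0.733, limma). The co-receptor NRP1 measured 33.7, 38.6 and 61.2 FPKM in control and 68.9, 58.9 and 79.0 FPKM in Ras-induced libraries, which overlapped (log2 fold change 0.66, adjusted p = 0.096, limma).

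Among the 4 other PDGF genes, 3 were tested and 2 were called, in opposite directions. PDGFC, which binds PDGFRA once its CUB domain has been cut off, measured 71.0, 60.3 and 67.2 FPKM in control and 87.8, 99.1 and 89.1 FPKM in Ras-induced libraries. It rose by 0.47 on the log2 scale (standard error 0.09, adjusted p = 0.019, limma), and the call was lost without the second control, the second Ras-induced or the third Ras-induced library (highest adjusted p = 0.064). PDGFRL, a secreted protein that resembles the outer part of a PDGF receptor, measured 8.30, 6.55 and 12.2 FPKM in control and 2.15, 1.88 and 2.07 FPKM in Ras-induced libraries. Control was 4.42 times Ras-induced, and the log2 fold change was -1.68 ± 0.21 (standard error), with an adjusted p of 0.0053 (limma). PDGFB was measured at 0.172 FPKM or less in every library, so PDGFC was the most abundant PDGF ligand in both groups.

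The FGF and HGF partners gave 0 calls in limma, among 2 tested FGF ligands, 4 tested FGF receptors and carriers, and 2 tested HGF partners. At an unadjusted p below 0.05 the count was 1, 0 and 2 in these lists. Of the 20 further FGF ligands, 9 were listed at 0 in all libraries and 18 were not tested. FGF5, the most abundant FGF ligand, measured 133.1, 125.1 and 101.3 FPKM in control and 82.9, 61.1 and 99.1 FPKM in Ras-induced libraries, without overlap (log2 fold change -0.58, adjusted p = 0.086, limma). FGFR1, the main FGF receptor of these cells by level, measured 73.9, 68.0 and 81.4 FPKM in control and 68.3, 53.0 and 63.2 FPKM in Ras-induced libraries (log2 fold change -0.28, adjusted p = 0.156, limma). FGFR2, whose epithelial isoform is the receptor of FGF7, was listed at 0 in 5 libraries and at 0.0222 FPKM in the other. The 2 tested HGF partners differed in direction. MST1, the HGF-like ligand, was low, at 0.801, 0.215 and 0.578 FPKM in control and 1.74, 1.24 and 1.79 FPKM in Ras-induced libraries, without overlap (log2 fold change 0.77, adjusted p = 0.066, limma, and 0.038 without the mean-variance trend). Its mean was 0.531 FPKM in control and 1.59 FPKM in Ras-induced cells. MST1 thus passed the filter only through the Ras-induced group, and its test is given as a description. With 0.1 FPKM added instead of 1, its log2 fold change was 1.53. MET, the receptor of HGF, measured 23.3, 22.0 and 26.0 FPKM in control and 12.4, 11.4 and 21.1 FPKM in Ras-induced libraries. Its groups did not overlap, but its log2 fold change of -0.68 missed the threshold (95% interval -1.20 to -0.15, adjusted p = 0.081, limma).

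For the stanniocalcins, the list held the pappalysins and the binding proteins that they cut. PAPPA, the best known stanniocalcin target, was at 0.304 to 1.19 FPKM and was not tested, as was PAPPA2. IGFBP4, the classical substrate of PAPPA, measured 205.9, 212.6 and 156.0 FPKM in control and 95.6, 118.0 and 63.6 FPKM in Ras-induced libraries. It fell by 1.08 on the log2 scale (standard error 0.24, adjusted p = 0.028, limma), and the call was lost without the filter on low values or without the first control, the second control or the first Ras-induced library (highest adjusted p = 0.087). IGFBP5 measured 97.9, 134.5 and 85.3 FPKM in control and 75.4, 67.2 and 32.5 FPKM in Ras-induced libraries, and did not pass (log2 fold change -0.91, adjusted p = 0.108, limma).

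**Figure D4:**
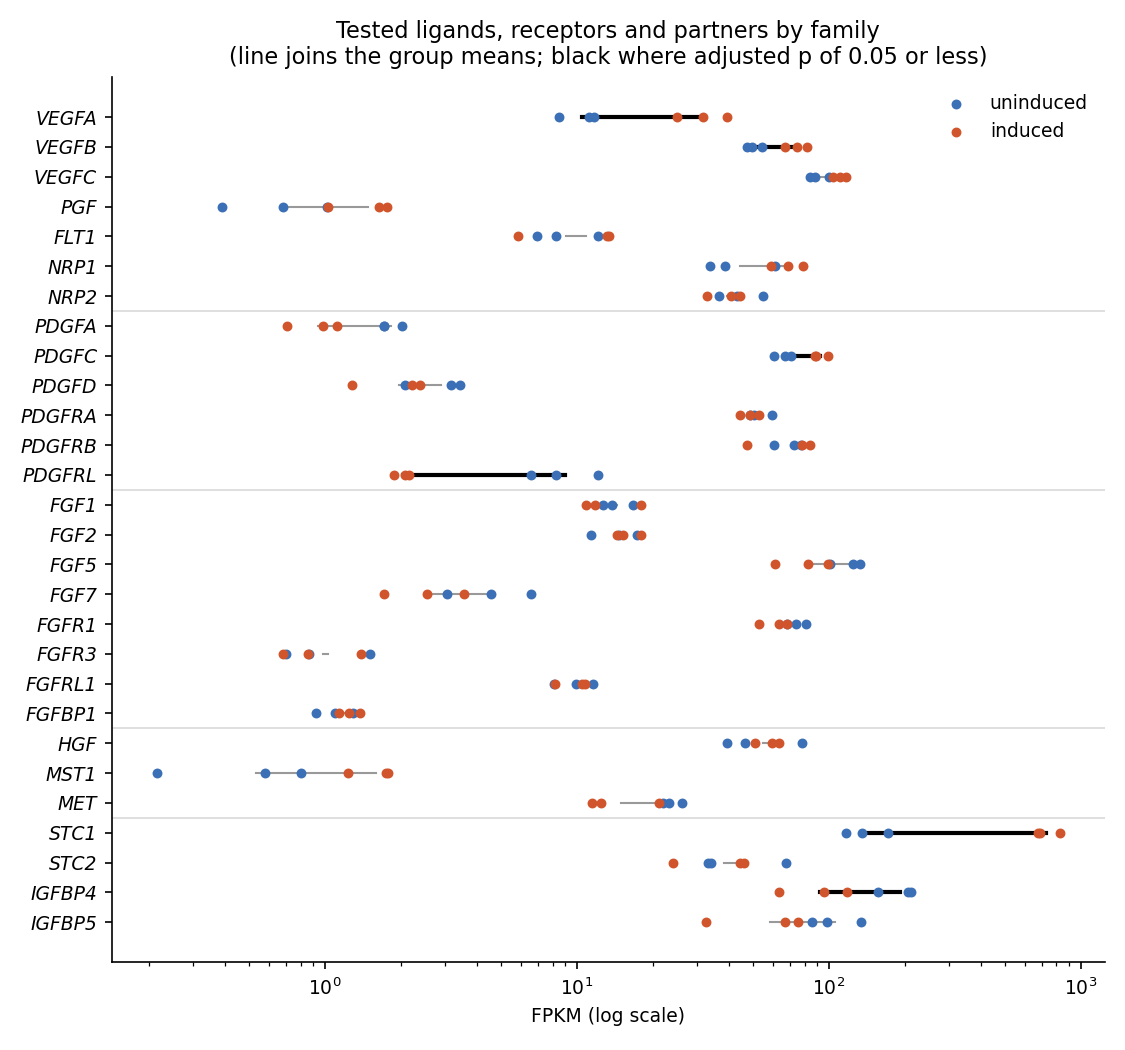
FPKM (log axis) of the 10 genes and the 18 tested partners in 3 uninduced (blue) and 3 induced (orange) libraries, grouped by family, with a line joining the group means (black where adjusted p was 0.05 or less). VEGFA, VEGFB, PDGFC and STC1 move to the right, and PDGFRL and IGFBP4 to the left.

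STC1 and VEGFA are both known targets of hypoxia-inducible factors, and STC2 of ATF4, the transcription factor of the integrated stress response. Other known hypoxia targets, a short list put together with earlier results known, were therefore set beside them. The counts over this list are a description. Of 14 listed, 13 were tested and 7 were called, 6 as higher and 1 as lower, beside 11.0% called as higher and 5.67% as lower over all tested genes. The median log2 fold change of the list was 0.60 (0.10 over all tested genes). ANGPTL4, a secreted lipase inhibitor, measured 3.77, 2.59 and 2.86 FPKM in control and 29.7, 18.7 and 16.6 FPKM in Ras-induced libraries (log2 fold change 2.44 ± 0.23, standard error, at an adjusted p of 0.0026, limma). PFKFB4, a regulator of glycolysis, measured 4.10, 4.44 and 4.07 against 11.8, 8.64 and 9.95 FPKM (log2 fold change 1.09, adjusted p = 0.0045, limma). NDRG1, a stress-responsive gene, rose by 0.99 at an adjusted p of 0.049 (limma), and this call was lost in 4 of 7 other settings and held in only 1 of the 6 fits without a library. ANKRD37, PDK1 and PFKFB3 were also called, with log2 fold changes of 0.79, 0.72 and 0.69. The call of PDK1 was lost in 4 of 7 other settings and in 4 of the 6 fits without a library, and those of ANKRD37 and PFKFB3 in 3 and 2 of these 6 fits.

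The called genes of the list differed in direction, and LOX alone fell. LOX, the collagen cross-linking enzyme lysyl oxidase, measured 238.2, 252.8 and 322.2 FPKM in control and 87.3, 76.5 and 52.8 FPKM in Ras-induced libraries. Its groups did not overlap, and the log2 fold change was -1.91 ± 0.20 (standard error), with an adjusted p of 0.0037 (limma). The tested genes that did not pass were BNIP3 (log2 fold change 0.60), ADM (0.31), KDM3A (0.28), P4HA1 (0.00), CA9 (-0.02) and the glucose transporter gene SLC2A1 (-0.30). EGLN3 was too low to be tested. Within groups, 11 of the 14 genes had their highest Ras-induced value in the first library, as VEGFA did (39.3 FPKM), whereas STC1 had its highest in the third. Among the controls, 9 of the 14 were highest in the third library, as STC1 was (171.6 FPKM), whereas VEGFA was highest in the first (11.7 FPKM). Both groups were grown at the same 3% oxygen.

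Of 10 further ATF4 targets, 9 were tested and 0 were called (limma), with 1 at an unadjusted p below 0.05 and a median log2 fold change of 0.26. Over all tested genes 16.7% were called, 33.6% had an unadjusted p below 0.05 and the median was 0.10, so with 9 genes the absence of a call lies near the background. The first control library was the highest control for 9 of these 10 genes, as it was for STC2. In it ASNS, the asparagine synthetase gene, measured 100.3 FPKM, beside 39.4 and 52.3 FPKM in the other controls. TRIB3 measured 20.8 FPKM there, beside 7.41 and 5.89 FPKM. Without that library 1 ATF4 target was called, the stress gene DDIT4 (adjusted p = 0.027, limma).

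**Figure D5:**
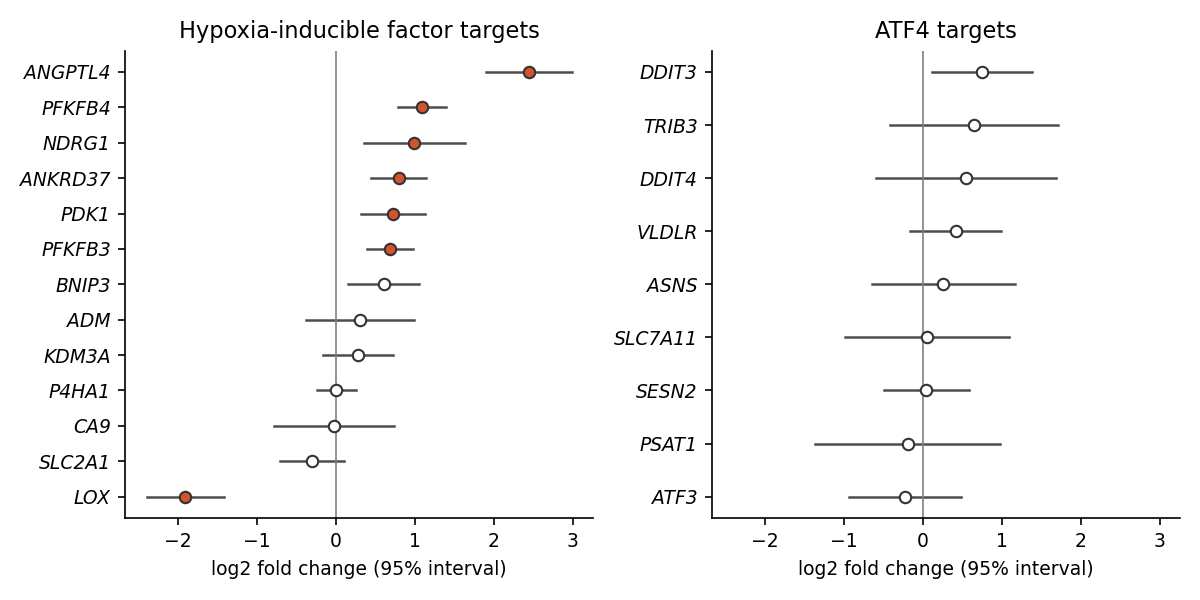
Log2 fold change of induced over uninduced cells with 95% interval for 13 tested hypoxia-inducible factor targets (left) and 9 tested ATF4 targets (right), filled where adjusted p was 0.05 or less. On the left 6 filled points lie above 0 and LOX lies at -1.91, and on the right 0 points are filled.

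The genes most like STC1, VEGFA and FGF7, the 3 members with the largest fold changes in size on the log2(FPKM + 1) scale, were found among 7042 protein-coding genes averaging 10 FPKM or more, by Pearson correlation of log2(FPKM + 1) over the 6 libraries. By the ratio of means PDGFA (1.94) would take the place of FGF7 (1.81). With 6 points in 2 groups, such a value takes in the step between the groups as well as the spread within them, and is given as a description. For STC1 they were NTSR1 (r = 0.999), the neurotensin receptor gene, SRPX (0.998) and GPN2 (0.998). NTSR1 went from a mean of 10.8 to 80.0 FPKM and SRPX from 61.9 to 219.9 FPKM, while GPN2 went only from 18.9 to 27.2 FPKM. For VEGFA they were CLIP4 (0.995), SSR1 (0.995) and TBX3 (0.993), and for FGF7 they were C4orf27 (0.988), DIAPH1 (0.984) and TRIM14 (0.95).

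Values that concern the samples as a whole were as follows. HRAS measured 1140 to 1176 FPKM in control and 1439 to 1847 FPKM in Ras-induced libraries (log2 fold change 0.44, adjusted p = 0.043, limma), and both the endogenous gene and the construct can give these reads. The 8 fibroblast markers were all present. Their summed level ranged from 4890 to 5517 FPKM in control and from 3076 to 4287 FPKM in Ras-induced libraries. Of the 8, 4 were called as lower, beside 5.67% of all tested genes (log2 fold changes of -3.26 for DCN, -2.01 for LUM, -1.30 for COL1A2 and -1.19 for THY1). COL1A1 (-1.43, adjusted p = 0.0501, limma) and COL3A1 (-1.25, adjusted p = 0.055, limma) also lay below all controls but missed the threshold. VIM (0.06) and S100A4 (0.19) did not pass. Endothelial markers summed to 15.6 to 17.5 FPKM in control and 8.18 to 10.6 FPKM in Ras-induced libraries, with the defining marker PECAM1 at 0 in all 6. Nearly all of the control sum was TEK (14.4 to 16.4 FPKM), and the Ras-induced sum was mostly TEK and TIE1 (means of 4.93 and 4.50 FPKM). Of the 2 tested, TEK was lower (log2 fold change -1.45) and TIE1 higher (1.24). Epithelial markers summed to 22.7 to 36.2 and 21.8 to 25.5 FPKM, and leukocyte markers to 0.134 to 0.249 and 0.103 to 0.468 FPKM, in control and Ras-induced libraries respectively. The epithelial sums were mostly KRT5 and KRT14, with CDH1 at no more than 0.224 FPKM in any library. The 6 mitotic markers summed to 1570 to 1634 FPKM in control and 1289 to 1432 FPKM in Ras-induced libraries, 3 of them called as lower (5.67% of all tested genes were called as lower). The part of these shifts in the results of the 10 genes was not tested, and in such bulk libraries fewer cells of a type and less RNA per cell cannot be told apart.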

How the data were processed

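Poly(A) RNA of 6 libraries was sequenced with an unstranded TruSeq kit. The authors trimmed reads with Trim Galore 0.3.0, used TopHat2 for alignment to hg19, guided by splice junctions from Ensembl build 73, and deposited FPKM values per gene and library made with Cufflinks. Their Cuffdiff comparison (group FPKM, fold changes and p-values) was not used. A second header line, 18 unnamed columns and 120 genes with more than 6 values were left out, leaving 63009 genes.

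The 10 genes and all gene lists were chosen with earlier results of these data known. The 13993 genes averaging 1 FPKM or more entered a two-sided limma test (version 3.58.1, R 4.3.3; lmFit, then eBayes with a trend) of log2(FPKM + 1), with Benjamini-Hochberg adjustment over all of them. That scale understates the change of low genes. Ratios within libraries were compared by exact permutation. The text names the 10 genes, called partners, the 3 largest called rises and falls of the hypoxia and ATF4 lists, HRAS and the nearest genes by correlation. Other called hypoxia targets and the uncalled partners and targets in the text were named after their values were seen. The procedure was tested on simulated data of 13993 genes, where it called 150 of 200 changed genes and 10 unchanged ones.

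Coordinates of genes are from GENCODE 44 on GRCh37, the build of hg19. Promoters are from RefSeq on GRCh38.p14 and were used for sequence only. Without counts, absolute depth is unknown. Steps between low FPKM values gave depths of 0.951 and 1.17 (controls) and 1.13, 0.849 and 0.972 (Ras-induced) relative to the first control. Values below 1 FPKM carry the most counting error relative to their level, but its size is not known without counts. Tables came from Python 3.11.15 (scipy 1.17.1, numpy 2.4.6, pandas 2.3.3) and figures from matplotlib 3.10.9. Alternatives tried were another pseudocount, filter, scaling, trend and call rule, a replicate block, and each library left out.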

Additional observations from a re-analysis of the deposited data

How the results depend on the processing

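STC1 and VEGFA kept their direction and their call in each of 7 other settings and in each of the 6 fits without a library (log2 fold change 2.24 to 2.51, highest adjusted p = 0.0090, for STC1, and 1.37 to 1.68, highest adjusted p = 0.023, for VEGFA, limma). The other settings gave 2 or 3 calls among the 10 genes, and leaving out a library gave 2 each time; the added call was PDGFA, without the mean-variance trend (adjusted p = 0.030). Directions turned only for genes that were not called. Over the fits without a library, the log2 fold change of STC2 ranged from -0.37 to 0.13 (0.13 without control 1, 0.09 without Ras-induced 3) and that of PDGFRB from -0.19 to 0.22 (0.04 without control 2, 0.22 without Ras-induced 3). That of HGF ranged from -0.066 (without control 2) to 0.42 and that of FGF2 from -0.012 (without control 3) to 0.27. The difference of log2(FPKM + 1) between PDGFRB and PDGFRA ranged from -0.11 to 0.39 (-0.11 without control 3, -0.07 and -0.09 without Ras-induced 1 and 2). The cause was not tested.

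Calling only changes of 1 or more in size on the log2 scale left 2 partner genes, 3 hypoxia targets and 548 of all genes called, and dropping the filter on low values left 1518 of all genes (2336 as reported). Leaving out a library gave 1 to 5 partner genes, 3 to 7 hypoxia targets, 0 to 1 ATF4 targets and 998 to 1956 of all genes. Partner genes fell to 1 without control 2 and 2 without Ras-induced 1, hypoxia targets to 3 without control 2 or Ras-induced 3 and 4 without Ras-induced 1, and all genes to 1127 without control 1, 1000 without control 2, 1159 without Ras-induced 1, 1545 without Ras-induced 2 and 998 without Ras-induced 3. With fewer libraries a group holds 2 values. Scaling moved the balance of all calls, from 1543 higher and 793 lower to 1044 and 1109 with quantile normalization and to 921 and 1101 with upper-quartile scaling, which moved the median log2 fold change from 0.10 to 0.01 and 0.00; the 10 genes kept their direction and call under both scalings.

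Libraries of the same number did not deviate together (correlations of -0.003, 0.04 and 0.05), so the number was not taken as a pairing. A fit with the replicate block called 7 partner genes, 3 higher and 4 lower, in place of 4, the 3 further ones being NRP1, MET and IGFBP5 (adjusted p = 0.042, 0.043 and 0.044, limma), and 2 of the 10 genes. It ended the call of the hypoxia target PDK1 (adjusted p = 0.051, limma) and added that of BNIP3 (adjusted p = 0.019, limma), so that 7 hypoxia targets were called as before. NRP1, MET and BNIP3 were each also called in 1 of the 6 fits without a library. Without read counts, the counting error of genes below 1 FPKM is not known.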
